A study of Mus musculus with 24 samples.

Results

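This comparison asks how mice given propyzamide differed from mice given vehicle when both were sampled 3 h after anti-CD3. The libraries were chosen by their labels alone, and 8 of the 24 libraries of the series belong to it, 4 in each group. All mice were male C57BL/6 animals of 11 weeks. The propyzamide group is labelled as antigen-stimulated mice treated with propyzamide, and the vehicle group as antigen-stimulated mice treated with an empty vehicle. Both groups therefore carry the anti-CD3 stimulus, and the treatment is what the labels set apart. The other libraries are 4 propyzamide and 4 vehicle libraries each from unstimulated mice and from mice 24 h after anti-CD3. They entered the fit that estimates the spread between libraries. The series title speaks of T cells in a preclinical model of inflammatory bowel disease. No source used here names the tissue, a sort of cells, a dose or a route. Labels do not say that the 4 libraries of a group came from separate mice, so p-values measure only the spread between these libraries, which may be technical.

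Propyzamide is a benzamide herbicide that binds plant tubulin and stops microtubule assembly. Anti-CD3 is an antibody against the CD3 chains of the T cell receptor complex. Given to a mouse it activates T cells at large, and the cytokines they release act within hours on macrophages, B cells and the intestinal epithelium. Early readouts of that activation include surface Cd69, granzyme B, the guanylate-binding proteins induced by interferon gamma, and chemokines of myeloid cells. NF-kappaB and its inhibitor Nfkbia, the C/EBP factors and the aryl hydrocarbon receptor are transcription regulators that tune such responses.

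No gene passed the test at 3 h. Of 3799 genes tested, 0 (0.0%) had an adjusted p of 0.05 or less in edgeR's quasi-likelihood test with Benjamini-Hochberg adjustment, and the smallest adjusted p was 0.581. The activation genes Gbp2, Gzmb, Acod1, S100a9, Serpina3g, Cxcl10 and Ccl24 had counts in both groups, with overlapping values. Genes of the aryl hydrocarbon receptor route were too low for the test. A single propyzamide library, replicate 3, stood apart from the other 7 in ribosomal, B cell, plasma cell and MHC class II genes, and many list values below depend on it.

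The groups also differ in a feature of the library names, an index of 8 letters called i5 that labels reads by sample. It is shown because it separates the groups completely.
i5 of the 4 vehicle libraries at 3 h: ACTCTAGG
i5 of the 4 propyzamide libraries at 3 h: TCTTACGC
The capitals are the whole index, as written in the library names. All 8 unstimulated libraries carry ACTCTAGG and all 8 libraries of 24 h carry TCTTACGC, so the pairs at those stages share 1 index each. The labels do not say that the index marks a batch. At 3 h, index and treatment cannot be told apart. The 4 propyzamide libraries at 3 h also have, in order of replicate, the second index (i7) of the 4 unstimulated vehicle libraries, ACTCGCTA, GGAGCTAC, GCGTAGTA and CGGAGCCT.

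Depth was low for bulk libraries. Total counts ran from 438750 to 1309423 in the propyzamide libraries and from 534663 to 1697401 in the vehicle libraries (two-sided exact permutation test, p = 0.657). Most counts fell on 12 gene models that share sequence with Gm10800, a satellite-like model. They took 76.8% ± 3.27 (SD, n = 4) of counts with propyzamide and 80.2% ± 3.85 (SD, n = 4) with vehicle (two-sided exact permutation test, p = 0.2). Named protein-coding genes took 5.56% ± 1.06 (SD, n = 4) and 5.06% ± 0.951 (SD, n = 4), and mitochondrial genes 1.15% ± 0.461 (SD, n = 4) and 1.14% ± 0.336 (SD, n = 4). Adjusted over the 7 measures compared, every exact permutation p was 1, and 4 libraries against 4 cannot give one below 0.0286.

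Propyzamide replicate 3 was the shallowest of the 8, with 17929 counts in named protein-coding genes. Of the 3799 tested genes, 1007 (26.5%) had no count in it, against 78 to 325 in the other 7 libraries. Cytosolic ribosomal protein genes made up 0.920% of its named protein-coding counts (95% exact binomial interval 0.786 to 1.07), against 4.06% to 6.10% in the others. No count was seen for 31 of the 79 tested ribosomal protein genes in it. The vehicle library next in depth, replicate 1, had a count for each of them. That library had 534663 counts in all but 34550 in named protein-coding genes, so it was deeper there than propyzamide replicate 3. By its ribosomal share, propyzamide replicate 3 differed in makeup and not only in depth, and it was low in immune cell genes too. Its summed level of MHC class II genes was 37.0 CPM against 279 to 851 in the other 7, and that of plasma cell genes 20.6 CPM against 221 to 878. CPM here means TMM-scaled counts per 1000000. Some genes had counts there like those of the other libraries, with 13 for the checkpoint receptor Tigit and 20 for the membrane mucin Muc16. The plots of list levels by library show this, and the split or median of each list below is given with and without this library. Intervals on counts cover counting error only.

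**Figure D1:**
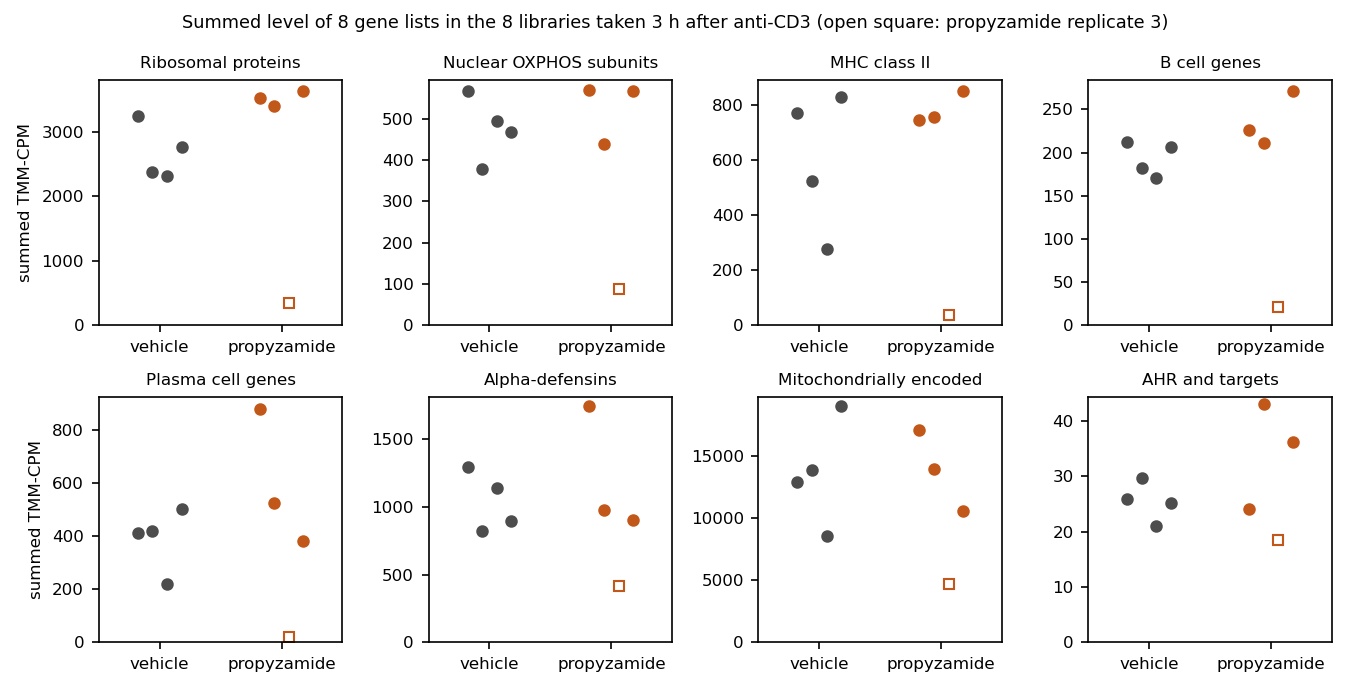
Summed level of 8 gene lists in each of the 8 libraries, in TMM-scaled CPM (y axis, from 0), by treatment (x axis). Each point is a library, and the open square is propyzamide replicate 3, which had 339 CPM of ribosomal protein genes where the other 3 propyzamide libraries had 3405 to 3645 and the vehicle libraries 2324 to 3250.

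The markers of T cells, the cells named in the series title, were sparse. The 9 T cell markers summed to 69 counts over the propyzamide libraries and 76 over the vehicle libraries. Cd3e, a signalling chain of the receptor complex, had 1 and 3 counts, and Trac, the constant part of the alpha chain, had 2 and 2. Cd3d, another chain of the complex, had 18 and 29. Markers of Paneth, plasma, epithelial and B cells were more abundant. The 3 Paneth cell markers Lyz1, Itln1 and Defa24 summed to 2185 counts with propyzamide and 1816 with vehicle, and the 3 plasma cell markers Jchain, Mzb1 and Igha to 1129 and 753. The 6 epithelial markers gave 404 and 373 counts, and 5 B cell markers 193 and 194. Other types were nearer to T cells or below them, with 128 and 70 for 5 macrophage markers and 128 and 88 for granulocytes. Dendritic cell markers gave 15 and 25, and stromal markers 41 and 76. The libraries thus hold RNA of intestinal epithelium and of several immune cells. In such bulk libraries fewer cells of a type and less RNA per cell cannot be told apart.

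Across all tested genes the differences were small in number and leaned lower. Unadjusted p was under 0.05 for 114 genes (3.0%), 24 higher (0.632%) and 90 lower (2.37%) with propyzamide. The distribution of p held fewer small values than an even spread would give. The 4 values of a group lay wholly above or below those of the other for 101 genes (2.66%), 25 higher (0.658%) and 76 lower (2.0%). Log2 fold changes were higher for 1724 genes (45.4%), with a median of -0.05. Without propyzamide replicate 3 the count of called genes was again 0 (0.0%), unadjusted p was under 0.05 for 134 genes (3.53%), and the lean was smaller, with 61 higher (1.61%) and 73 lower (1.92%), 1916 genes (50.4%) with a higher log2 fold change and a median of 0.01.

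What the data can bound is limited. The 95% interval of the log2 fold change had a median half-width of 1.26 over all tested genes and 1.33 over the 2460 named protein-coding genes. It lay inside ±1, a doubling or halving, for 459 genes (12.1%) and inside ±2 for 2598 (68.4%). The biological coefficient of variation was 46.4%. For most genes a change of doubling size was thus neither detected nor excluded by its interval.

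**Figure D2:**
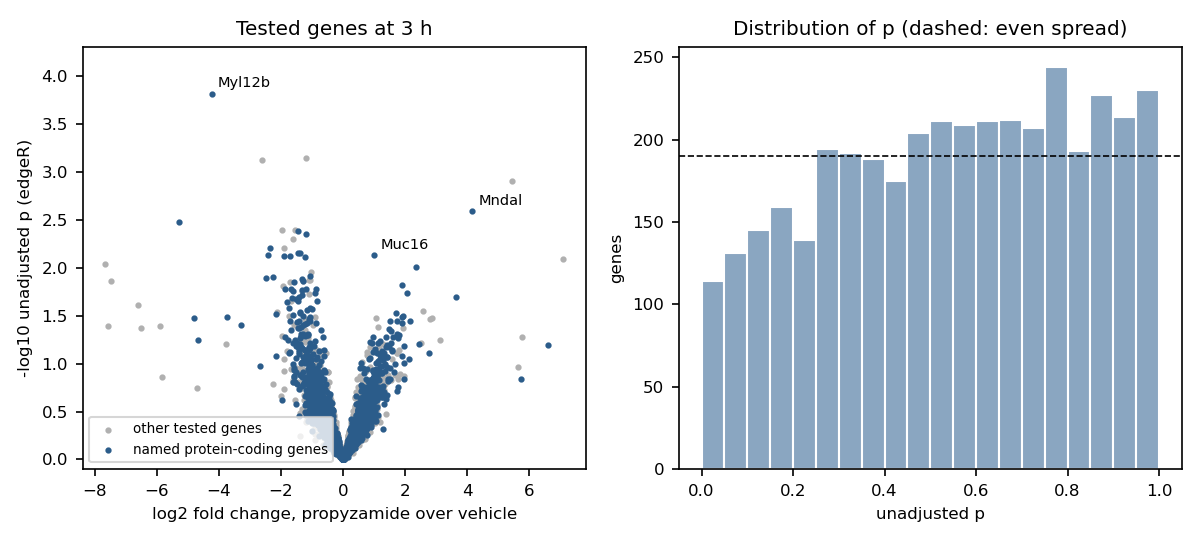
Left, log2 fold change of propyzamide over vehicle at 3 h (x axis) against -log10 of the unadjusted p of edgeR (y axis) for 3799 tested genes. Right, the number of genes in 20 equal bins of unadjusted p, where the dashed line marks an even spread and the lowest bin, with 114 genes, lies below it.

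Genes of the T cell receptor and of T cell activation did not differ past the threshold. Of 23 genes of the receptor complex and its proximal kinases, 7 were tested, 2 with a higher and 5 with a lower log2 fold change (3 and 4 without propyzamide replicate 3), and 0 were called (0.0% of all genes). The kinase Lck, which phosphorylates the CD3 chains, had 1, 4, 2 and 2 counts with vehicle and 3, 1, 0 and 2 with propyzamide. The costimulatory receptor Cd28 had 0, 1, 8 and 0 against 7, 4, 6 and 1. Such counts cannot place either gene. Of 28 activation and cytotoxic effector genes, 12 were tested, 4 higher, 8 lower and 0 called, with a median of -0.15 beside -0.05 for all tested genes. Without propyzamide replicate 3 the split was 8 higher and 4 lower and the median 0.15.

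Cd69, a membrane protein that T cells show early after stimulation, had 15, 33, 10 and 20 counts with vehicle and 46, 21, 1 and 14 with propyzamide. Its log2 fold change was -0.10 ± 0.52 (SE), with a 95% interval of -1.17 to 0.97, and 0.19 without propyzamide replicate 3. The groups overlapped throughout. Gzmb, the granzyme that cytotoxic cells load into target cells, measured 27.7, 6.85, 3.94 and 30.3 CPM with vehicle and 14.4, 10.4, 2.06 and 13.3 CPM with propyzamide. Both groups stood above their unstimulated means of 0.650 and 2.57 CPM, save propyzamide replicate 3. The vehicle libraries split into a high and a low pair, and the propyzamide values lay between them apart from replicate 3. Its difference was -0.64 ± 0.65 (SE, 95% interval -1.97 to 0.68).

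Serpina3g, a serine protease inhibitor of activated lymphocytes, had 15, 39, 0 and 38 counts with vehicle and 99, 40, 4 and 58 with propyzamide. Each of 3 propyzamide libraries was at or near the top of the vehicle range in CPM, and replicate 3 was low. The log2 fold change was 0.91 ± 0.65 (SE, 95% interval -0.41 to 2.23) and 1.20 without replicate 3, with an unadjusted p of 0.17 and 0.0653. The checkpoint receptors Lag3 and Tigit gave -1.32 ± 0.77 and -0.57 ± 0.47 (SE).

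Cytokine messages were mostly at the edge of detection. Ifng, the cytokine that drives the guanylate-binding proteins, had 0 counts with vehicle and 1 with propyzamide, and Il17a had 0 in all 8 libraries. Il22, which acts on epithelium, had 15 counts against 29, and Il2, the growth factor of activated T cells, 0 against 4. With vehicle set to the floor of 3 counts over the group, the Il2 ratio was 1.25. So few counts cannot place Il2. Tnf, a cytokine of activated T cells and macrophages, was the exception in shape. It had 0, 0, 0 and 1 counts with vehicle and 12, 4, 1 and 2 with propyzamide, so every propyzamide library lay above every vehicle library in CPM. The ratio of pooled, depth-scaled counts was 17.8, with a 95% exact interval of 2.83 to 739. Tnf did not pass the filter on low counts. In the fit without that filter its log2 fold change was 3.88, with an unadjusted p of 0.00221 and an adjusted p of 0.857 by edgeR, so it failed the correction. With 19 counts in all against 1, the ratio rests on few reads.

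The genes that respond to interferon and to myeloid activation had counts at 3 h in both groups, and none was called. Gbp2, a GTPase induced by interferon gamma, measured 29.4, 16.0, 3.94 and 69.4 CPM with vehicle and 64.1, 26.7, 10.3 and 23.5 CPM with propyzamide. Unstimulated means were 0.887 and 3.18 CPM, so all 8 stimulated values lay above them. The log2 fold change was 0.12 ± 0.63 (SE, 95% interval -1.18 to 1.42). The 9 tested interferon-inducible GTPases had 7 higher and 2 lower log2 fold changes, with a median of 0.13, and the same split with a median of 0.34 without replicate 3. Of 13 tested interferon-stimulated genes and regulators, 6 were higher and 7 lower, with a median of -0.13. Without replicate 3 the split was 10 higher and 3 lower and the median 0.088. The regulator Irf7 had a log2 fold change of 1.41 ± 0.85 (SE) and the apoptosis factor Xaf1 one of -1.75 ± 0.95 (SE).

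Acod1, the itaconate-making enzyme of activated macrophages, measured 36.3, 21.3, 10.5 and 54.3 CPM with vehicle and 35.3, 25.2, 0 and 10.2 CPM with propyzamide, a log2 fold change of -0.72 ± 0.72 (SE). The eosinophil-attracting chemokine Ccl24 gave 0.16 ± 0.72 (SE), and Cxcl10, which attracts activated T cells, -0.29 ± 0.86 (SE). S100a9, an alarmin of neutrophils, was at 0 in every unstimulated library and gave 13.1 ± 10.3 CPM (SD, n = 4) with vehicle and 17.8 ± 13.4 CPM (SD, n = 4) with propyzamide at 3 h. The low vehicle values of Gbp2, Serpina3g, Cxcl10 and Ccl24 came from the same library, vehicle replicate 3, where the last 3 had 0 counts. That library also had 61 counts of Fabp1, the fatty acid-binding protein of enterocytes, against 9 to 19 in the other vehicle libraries. The plot of activation genes shows both low libraries, and whether they share a source was not tested.

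**Figure D3:**
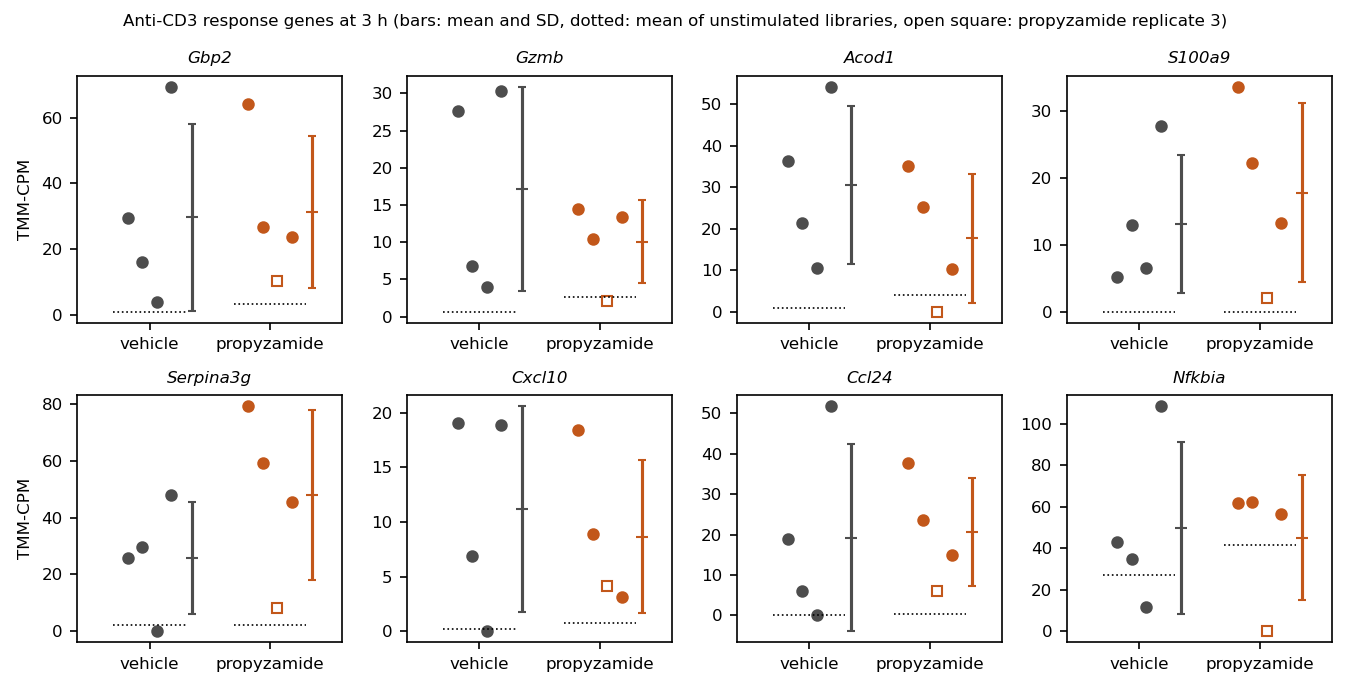
Level of 8 anti-CD3 response genes in TMM-scaled CPM (y axis) in the 4 vehicle and 4 propyzamide libraries at 3 h (points). Bars give mean and SD of 4 libraries, dotted lines the mean of the unstimulated libraries of the same treatment, and the open square propyzamide replicate 3; the groups overlap for each gene.

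NF-kappaB genes gave a similar picture. Nfkbia, the inhibitor that NF-kappaB itself induces, had 25, 46, 9 and 86 counts with vehicle and 77, 42, 0 and 72 with propyzamide. Its log2 fold change was -0.10 ± 0.57 (SE, 95% interval -1.26 to 1.06) and 0.23 without replicate 3, where it had no count. Of 20 genes of the NF-kappaB and C/EBP list, 9 were tested, 3 higher and 6 lower, with a median of -0.10 and 0 calls. Without replicate 3, which had a summed level of 14.4 CPM for the list, they were 5 higher and 4 lower with a median of 0.21. Relb and Rel, subunits of the complex, had values of -0.98 ± 0.75 and -0.56 ± 0.56 (SE), and the kinase Ikbkb -0.94 ± 0.61 (SE). Below the filter stood Nfkb1 with 19 counts for vehicle and 24 for propyzamide, Rela with 6 and 15, and Cebpb with 2 and 2.

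The aryl hydrocarbon receptor is a ligand-activated factor that turns on Cyp1a1, its repressor Ahrr and the feedback enzyme Tiparp. None of its 13 listed genes reached the count filter. Over the 4 libraries of each group, Ahr itself had 7 counts with vehicle and 12 with propyzamide, Ahrr 25 and 28, Tiparp 18 and 13, and Nqo1 2 and 5. Cyp1a1, the most used readout of the receptor, had 3 counts with vehicle and 0 with propyzamide, both at or under the floor of 3. The list's summed level was 21.03 to 29.67 CPM with vehicle and 18.5 to 43.0 CPM with propyzamide, where 2 libraries lay above and 1 below the vehicle range. A difference in this route was not detectable at this depth.

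Genes of xenobiotic and glutathione metabolism were mostly unmeasured too, with 4 of 32 tested. All 4 had a higher log2 fold change, with a median of 1.19 (1.47 without replicate 3), and 0 were called. The glutathione transferase Gstm1 had 0, 0, 4 and 0 counts with vehicle and 59, 7, 0 and 3 with propyzamide. Gstm3 had 0, 1, 2 and 8 against 49, 0, 0 and 2. A single library, propyzamide replicate 1, held most counts of both, and Gstp1 had 34 there against 0 to 12 elsewhere. In the fit without the filter on low counts Gstm1 was called (3.77, adjusted p = 0.0385 by edgeR). Without propyzamide replicate 1 the log2 fold changes were 1.76 for Gstm1, -2.03 for Gstm3 and -0.53 for Gstp1. The Gstm genes are close copies, so the counting may have split their reads.

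Microtubule genes, which encode the protein family that propyzamide binds in plants, showed no called difference. Of 20 listed genes 11 were tested, 3 higher and 8 lower, with a median of -0.46, and -0.18 without replicate 3. Tubb5, a beta tubulin, had 17, 28, 13 and 13 counts with vehicle and 24, 12, 1 and 21 with propyzamide, for a log2 fold change of -0.51 ± 0.47 (SE, 95% interval -1.47 to 0.45). Tuba1b, an alpha tubulin, gave -0.18 ± 0.53 (SE) and 0.13 without replicate 3. Dync1h1, the heavy chain of the dynein motor, gave 1.17 ± 0.78 (SE). Cell cycle and DNA replication genes had 10 of 13 tested members lower and a median of -0.34 (0 called), and -0.16 without replicate 3.

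Lymphocyte lists turned on the library that stood apart. The 18 tested B cell genes had 4 higher and 14 lower log2 fold changes with a median of -0.08, and 15 higher and 3 lower with a median of 0.13 without propyzamide replicate 3. The summed B cell level was 212.7, 181.8, 170.9 and 206.9 CPM in the vehicle libraries, and 226.0, 210.6, 20.6 and 271.6 CPM in the propyzamide libraries. Leaving aside replicate 3, 2 propyzamide values were above the vehicle range and 1 was just under its top. The lambda light chain genes Iglc1, Iglc2 and Iglc3 gave 1.13 ± 0.70, 1.13 ± 0.61 and 0.81 ± 0.56 (SE). Their unadjusted p by edgeR was 0.117, 0.0752 and 0.161 with all 8 libraries, and 0.0455, 0.0293 and 0.0284 without replicate 3. That library was set apart partly by its low B cell level, which favours the smaller values. These light chain genes are related genes of 1 locus, and how the counting split reads between them was not tested. None was called with or without that library.

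Plasma cell genes had 6 of 9 tested members higher, with a median of 0.17, and 0.51 without replicate 3. Igha, the constant region of secreted IgA, had 99, 244, 69 and 198 counts with vehicle and 532, 133, 4 and 182 with propyzamide, a log2 fold change of 0.16 ± 0.62 (SE). Propyzamide replicate 1 held the highest value and replicate 3 the lowest. Jchain, which links IgA units, gave 0.62 ± 0.54 (SE) and 0.96 without replicate 3.

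The 10 MHC class II presentation genes were 3 higher and 7 lower with a median of -0.10, and 8 higher and 2 lower with a median of 0.15 without replicate 3. H2-DMb1, which helps load peptides, had 3, 1, 0 and 4 counts with vehicle and 17, 1, 0 and 19 with propyzamide (1.77 ± 0.88, SE). The class II activator Ciita gave -0.92 ± 0.64 (SE). Of 15 tested class I, immunoproteasome and peptide loading genes, 9 were higher and 6 lower, and 13 and 2 without replicate 3. The medians of that list were 0.42 and 0.47, against -0.05 and 0.01 for all tested genes. Macrophage and monocyte genes had 6 of 9 tested members higher, with medians of 0.40 and 0.67. C1qb, a complement subunit made by tissue macrophages, gave 1.28 ± 0.74 (SE), while Ccr2, the receptor of recruited monocytes, gave -0.51 ± 0.39 (SE). No member of these lists was called.

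Ribosomal protein genes showed the dependence on 1 library most clearly. With all 8 libraries, 46 of 79 tested genes were higher and 33 lower, with a median log2 fold change of 0.06. Without propyzamide replicate 3, 71 were higher and 8 lower, with a median of 0.36, beside 50.4% higher and a median of 0.01 for all genes. The median without it was 0.38 under RLE scaling and 0.32 with named protein-coding genes only, both tried after seeing the data. Summed levels were 3250, 2381, 2324 and 2763 CPM with vehicle and 3528, 3405, 339 and 3645 CPM with propyzamide. The 3 remaining propyzamide libraries lay above all vehicle libraries. As a share of named protein-coding counts they had 5.58%, 5.68% and 6.10%, against 4.06% to 5.44%. The exact binomial intervals of propyzamide replicates 1 and 2 (5.42 to 5.75 and 5.45 to 5.91) overlapped that of vehicle replicate 1 (5.20 to 5.68). That of propyzamide replicate 4 (5.93 to 6.27) did not. Replicate 3 was set apart partly by its low ribosomal level, which favours higher values without it. The separation in level or share is therefore no added support. Of the ribosomal protein genes, 0 were called with or without replicate 3. The genes of 1 library are not independent, so the count of 71 carries no test. Index and treatment cannot be told apart here either.

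**Figure D4:**
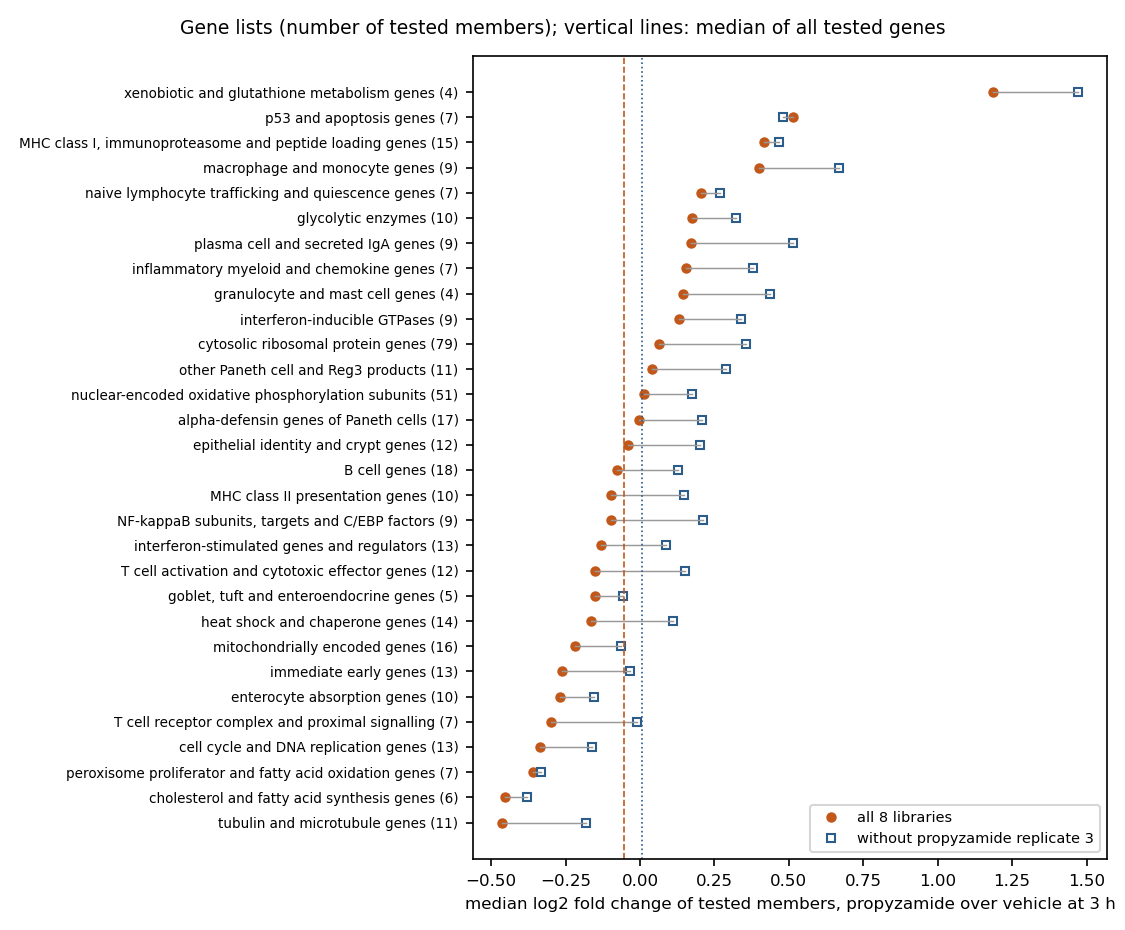
Median log2 fold change of propyzamide over vehicle at 3 h (x axis) for 30 gene lists with at least 3 tested members (number in brackets). Filled points use all 8 libraries and open squares leave out propyzamide replicate 3, with vertical lines for the medians of all tested genes (-0.05 and 0.01); the ribosomal list moves from 0.06 to 0.36.

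Energy metabolism genes did not move as a block. Nuclear-encoded subunits of oxidative phosphorylation were 26 higher and 25 lower among 51 tested, with a median of 0.01, and 0 were called. Without replicate 3 they were 32 higher and 19 lower, with a median of 0.18. Cox5a, a cytochrome c oxidase subunit, gave 1.46 ± 0.70 (SE), whereas the complex I subunits Ndufb2 and Ndufs1 gave -1.71 ± 0.78 and -1.24 ± 0.57 (SE). Mitochondrially encoded genes were 2 higher and 14 lower among 16 tested, with a median of -0.22, and 6 and 10 with a median of -0.06 without replicate 3. Before TMM scaling their mean share of all counts was 1.15% with propyzamide and 1.14% with vehicle. What part the scaling has in the lower values was not tested. Among 10 tested glycolytic enzymes 6 were higher and 4 lower, and 7 and 3 without replicate 3. Gapdh, the enzyme often used as a reference gene, had 16, 16, 18 and 40 counts with vehicle and 5, 11, 0 and 19 with propyzamide. The propyzamide values were lower in 2 libraries than in any vehicle library and overlapped in the others, for a log2 fold change of -1.61 ± 0.64 (SE, unadjusted p = 0.0177, adjusted p = 1 by edgeR). Tpi1, the isomerase just before Gapdh in the pathway, gave -1.50 ± 0.68 (SE). Gapdh has many processed pseudogenes, so its counts are uncertain.

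The summed levels of the epithelial lists varied within groups by more than the group means differed. That of MHC class II genes did so too, so this is not particular to epithelial genes. The alpha-defensins, antimicrobial peptides of Paneth cells, were 8 higher and 9 lower among 17 tested, with a median of 0.00 and summed levels of 822 to 1296 CPM with vehicle and 418 to 1741 CPM with propyzamide. Without replicate 3 they were 13 higher and 4 lower, with a median of 0.21. The highest and the lowest value were both propyzamide libraries, replicates 1 and 3. Defa29 gave -1.14 ± 0.56 (SE), and its family shares reads between near-identical copies. Itln1, an intelectin of Paneth and goblet cells, had 33, 58, 46 and 51 counts with vehicle and 173, 36, 11 and 98 with propyzamide (0.40 ± 0.41, SE). The enterocyte genes were 4 higher and 6 lower among 10 tested, with a median of -0.27, and -0.15 without replicate 3. Fabp1 gave -0.52 ± 0.91 (SE) and 0.39 when vehicle replicate 3, with its 61 counts, was left out.

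The 12 higher and the 12 lower named protein-coding genes with the smallest p and at least 20 counts are described next, and none was called. The equal numbers are set by that choice: of the 2460 tested named protein-coding genes, 16 were higher and 61 lower at an unadjusted p under 0.05. On the lower side Myl12b, a regulatory light chain of myosin on chromosome 17 (70973133 to 70990890, minus strand, GRCm38), had the smallest p of all genes. It had 10, 2, 13 and 8 counts with vehicle and 2, 0, 0 and 0 with propyzamide, a log2 fold change of -4.24 ± 0.98 (SE, unadjusted p = 0.000153, adjusted p = 0.581 by edgeR). The pooled ratio was 0.0567, with a 95% exact interval of 0.00659 to 0.222. Another gene model of the files, Gm49909, overlaps Myl12b on the same strand, from 70974119 to 71002208, and GENCODE M21 gives it the name Myl12b too. Its counts ran the other way, with 0, 3, 0 and 6 for vehicle and 19, 10, 0 and 6 for propyzamide. Summed over both models the locus had 10, 5, 13 and 14 counts with vehicle and 21, 10, 0 and 6 with propyzamide, and the log2 fold change was -0.50 (unadjusted p = 0.428 by edgeR, tried after seeing the data). At the locus as a whole the groups overlapped. Without vehicle replicate 2, Myl12b alone was the single gene called (-4.69, adjusted p = 0.046 by edgeR). The neighbour Myl12a, a close paralog named after its values were seen, gave -0.88 ± 0.77 (SE).

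Mndal, an interferon-inducible nuclear protein of the Ifi200 family on chromosome 1 (173849126 to 173942491, minus strand, GRCm38), had the smallest p of the named genes on the higher side. It had 0, 1, 0 and 0 counts with vehicle and 8, 4, 1 and 10 with propyzamide (4.15 ± 1.26, SE, unadjusted p = 0.00258). The pooled ratio was 21.5, with a 95% exact interval of 3.495 to 887, and the groups did not overlap, which its choice by p favours. Its annotated span covers its relative Ifi211 and overlaps most of its relative Ifi203, both on the same strand. Ifi203 had 34 counts with vehicle and 20 with propyzamide, and Ifi211 5 and 6. The models together had 40 counts with vehicle and 49 with propyzamide, or 11.69 ± 5.858 and 12.01 ± 4.075 CPM (SD, n = 4). As at Myl12b, the groups overlapped in the total of the locus while single models differed, and how the counting split the reads was not tested.

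Muc16, a large membrane mucin on chromosome 9 (18495455 to 18674530, minus strand, GRCm38), was the best covered gene on the higher side. It measured 17.3, 20.5, 19.7 and 15.1 CPM with vehicle and 24.0, 53.4, 41.1 and 30.6 CPM with propyzamide, so every propyzamide library, replicate 3 included, lay above every vehicle library. Its log2 fold change was 1.01 ± 0.35 (SE, 95% interval 0.29 to 1.73, unadjusted p = 0.00746, adjusted p = 1 by edgeR), and 0.92 without replicate 3. Against the mean of the unstimulated and 24 h differences its 3 h difference had an unadjusted p of 0.000355 and an adjusted p of 0.603 by edgeR. At those stages the differences were -0.23 and -1.23. Muc16 was chosen by its p at 3 h, which favours both the lack of overlap and this contrast, so neither is added support.

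Other genes on the higher side rested on few counts. Hspe1, the small partner of the mitochondrial chaperonin, had 2, 1, 0 and 2 counts with vehicle and 9, 12, 0 and 8 with propyzamide (2.36 ± 0.86, SE). Its partner Hspd1, read from the same promoter region and overlapping it by a short stretch, gave -0.66 ± 0.55 (SE), the opposite sign. Wdfy4, needed for cross-presentation by dendritic cells, gave 1.89 ± 0.74 (SE). Pglyrp1, a peptidoglycan-binding protein of neutrophils, and Tff3, the trefoil peptide of goblet cells, had 1.94 ± 0.86 and 1.73 ± 0.79 (SE), each with its highest count in propyzamide replicate 1. Log2 fold changes of Zfp60, Sgms1, Acp5, Trim25 and Kat7 lay between 1.52 and 2.17.

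Among the 12 lower genes 9 did not overlap between the groups, which their choice by p favours and which therefore supports nothing. Sesn3, a sestrin that restrains mTORC1 signalling, measured 20.8, 51.7, 44.7 and 29.0 CPM with vehicle and 16.0, 8.90, 6.17 and 20.4 CPM with propyzamide, so that the groups touched but did not overlap (-1.44 ± 0.46, SE). Chd9, a chromatin remodeller, had 46.7, 35.0, 60.5 and 56.8 CPM against 27.2, 28.2, 4.11 and 23.5 CPM (-1.20 ± 0.39, SE). Separation also held for the splicing factor Rsrc2, the clock factor Arntl2, the transcription factor Zeb2, the lysosomal mannosidase Man2b1 and the peptidase Tpp2. It held as well for the membrane protein Dcbld2 and the secreted protein Pi15. Their log2 fold changes lay between -2.36 and -1.06. Traf7 and Hjurp, the centromere histone chaperone, gave -2.41 ± 0.84 and -2.27 ± 0.85 (SE) with overlapping groups. Of the 24 genes in the plot of intervals, the 3 h interval left out 0 for each, which is how their p chose them, and no adjusted p passed.

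**Figure D5:**
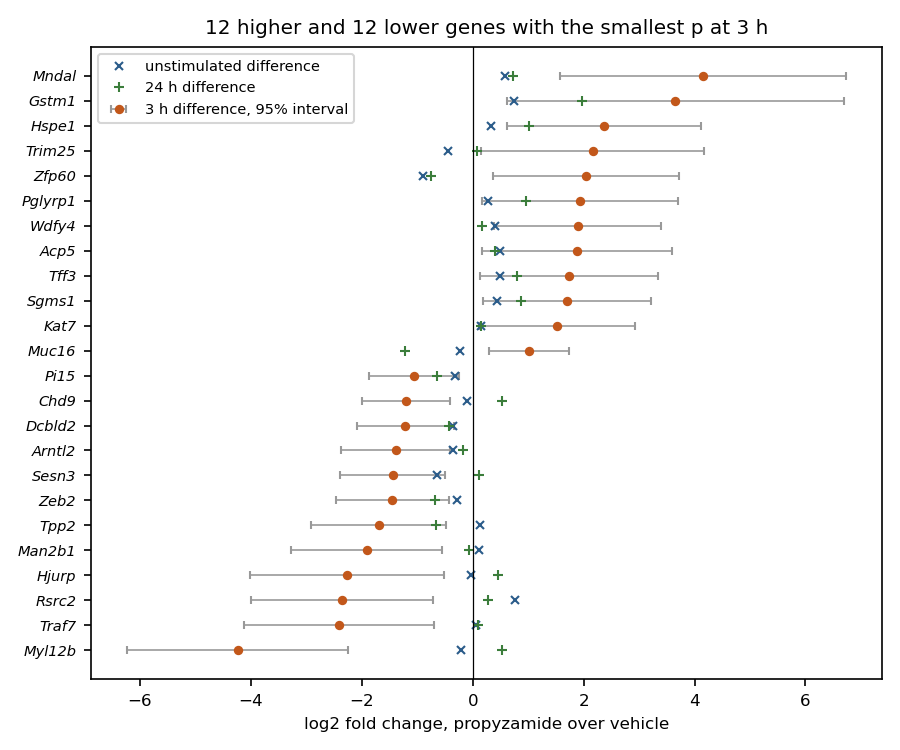
Log2 fold change of propyzamide over vehicle (x axis) for the 12 higher and 12 lower named protein-coding genes with the smallest p at 3 h. Points and bars give the 3 h difference with its 95% interval, crosses the unstimulated and plus signs the 24 h difference; Muc16 lies at 1.01 at 3 h and at -1.23 at 24 h.

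Among the 1339 tested models that are not named protein-coding genes, 8 were higher and 29 lower at an unadjusted p under 0.05. The 3 described here were chosen after their values were seen. Gm43305, a noncoding transcript on chromosome 14 (54292443 to 54297456, minus strand, GRCm38), had 205, 314, 195 and 129 counts with vehicle and 148, 95, 47 and 105 with propyzamide. In CPM every propyzamide library was below every vehicle library, with means of 110 ± 25.6 and 253 ± 78.9 CPM (SD, n = 4), and the log2 fold change was -1.21 ± 0.32 (SE, adjusted p = 0.959 by edgeR). It was -1.19 without propyzamide replicate 3. Gm48313, a long intergenic RNA on chromosome 12 (17603249 to 17607231), had 7, 24, 9 and 13 counts against 3, 2, 3 and 0 (-2.61 ± 0.69, SE). Gm22690, annotated as a miRNA gene on chromosome 4 (16129566 to 16129675), had 0, 0, 0 and 1 counts against 33, 2, 11 and 11 (5.45 ± 1.49, SE). These 3 did not overlap between groups, as their choice favours, and none passed the adjusted test over the 3799 genes. In the fit without the filter on low counts Gm22690 was called (5.48, adjusted p = 0.00605 by edgeR), and the other 2 were not (adjusted p = 0.857 and 0.813).

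The 3 h difference was also set against the differences of the other stages, where treatment groups share an index. Against the mean of the unstimulated and 24 h differences, 0 of 3799 genes (0.0%) were called by edgeR and 197 (5.19%) had an unadjusted p under 0.05, 72 with a higher (1.9%) and 125 with a lower (3.29%) difference at 3 h. Against the unstimulated difference alone 0 genes (0.0%) were called and 123 (3.24%) had an unadjusted p under 0.05, 54 higher (1.42%) and 69 lower (1.82%). Against the 24 h difference the numbers were 0 (0.0%) and 233 (6.13%), 86 higher (2.26%) and 147 lower (3.87%). The same threshold on unadjusted p took 128 genes (3.37%) in the unstimulated comparison, 57 higher (1.5%) and 71 lower (1.87%), and 388 (10.2%) at 24 h, 170 higher (4.47%) and 218 lower (5.74%), with 0 called (0.0%) in each. The 24 h values rest partly on propyzamide replicate 3 of that stage, which had 9812458 counts and 29.9% of them in named protein-coding genes, against 701499 to 2072033 counts and 3.76% to 8.64% in the other 7. Without it, the 24 h comparison had 212 genes (5.58%) and the 3 h difference against the 24 h difference 166 (4.37%), with 0 called in each. Among listed genes, Gapdh was -1.61 at 3 h beside 1.26 unstimulated and 0.84 at 24 h (unadjusted p of the difference 0.00136), and Tpi1 -1.50 beside 0.93 and 1.44 (0.00205). Without that 24 h library, Gapdh was 0.74 and Tpi1 0.88 at 24 h. The unadjusted p of the difference by edgeR was then 0.00195 and 0.00423, with an adjusted p of 0.960 for each. Both genes were chosen by their p at 3 h, which favours such a difference, so it is no added support. Stage and index cannot be told apart in these contrasts.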

How the data were processed

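Library preparation followed SMART-seq2, per the labels' protocols (a method that in its usual form does not mark strand), and reads were quantified with kallisto on GRCm38, per the submitters' processing notes; its version is not given in the sources used here. The deposited files hold expected counts, TPM and, of the unit class other, effective lengths per transcript, per the file headers. Expected counts of 142604 transcripts were summed to 55401 genes and rounded. Coordinates came from GENCODE M21 (GRCm38), matched by gene ID for 55141 genes. Satellite-like models share at least 5% of their 31-base stretches with Gm10800. The members and gene lists were chosen with earlier results of these data known.

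Counts were tested with edgeR 4.0.16 (R 4.3.3): 1 coefficient per group over all 24 libraries, filterByExpr, TMM and the quasi-likelihood F test, and a gene was called where its p, adjusted by Benjamini-Hochberg, was at most 0.05. The procedure was tested on simulated data. Library measures used exact permutation tests (SciPy 1.17.1, Python 3.11.15). The text names the 12 higher and 12 lower named protein-coding genes with the smallest p and at least 20 counts, 3 tested members per list with the smallest p, and a panel of 30 genes, 14 of them tested; not every such gene is printed, and 1 is not reported here. Members of the 36 lists are described by counts and medians. Alternatives were RLE scaling, no filter, fewer libraries, a length offset, named protein-coding genes only, DESeq2 1.42.0, and limma 3.58.1 as voom with quality weights or on log2(TPM + 1).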

Additional observations from a re-analysis of the deposited data

Results flagged for a closer look

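Among 82 groups of 4 libraries examined (library measures and summed list levels), 9 held a library far from the other 3. Chance gives about 1 in 20 among independent groups. These groups are measures of the same 8 libraries and not independent, so that rate is no test of the 9. Propyzamide replicate 3 was the lowest of its group in 5 of them, with summed levels of 22.6 CPM for T helper and regulatory T cell genes, 37.0 CPM for MHC class II genes, 14.4 CPM for NF-kappaB and C/EBP genes, 59.7 CPM for heat shock and chaperone genes and 339 CPM for ribosomal protein genes. In the first of these the other 3 libraries lay within 26.7 to 27.2 CPM, so the gap is small in size. Vehicle replicate 3 was the highest of its group for Paneth cell and Reg3 products other than alpha-defensins, at 384 CPM, and for enterocyte absorption genes, at 219 CPM against 63.1 to 70.7 in the others. Vehicle replicate 4 was the highest for p53 and apoptosis genes, at 106 CPM, and vehicle replicate 1 for the share of counts in named protein-coding genes, at 6.49%.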

How the results depend on the processing

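No paired analysis was possible because the labels give the libraries no replicate numbers. The count of called genes at 3 h was 0 in each direction under each alternative except 2. Without the filter on low counts (48267 genes) 7 were higher, Gstm1 and Gm22690 among them, and 4 lower, most of them at 0 in several libraries. Leaving out each library in turn gave 0 to 1 lower gene, the 1 being Myl12b without vehicle replicate 2. Without the filter, the 3 h difference had 6 higher and 8 lower genes against the mean of the other stages, 12 and 9 against unstimulated, and 6 and 21 against 24 h. DESeq2 called 1 lower gene, Apoa4, against that mean and 1 against 24 h. At 3 h an unadjusted p under 0.05 was met by 123 genes in DESeq2, 203 in limma-voom and 152 in limma-trend, against 114 in edgeR. Of the list medians, 534 moved by less than their limit and 1, of peroxisome proliferator genes with only the 8 libraries, by more. A median within the limit could still turn sign. Without propyzamide replicate 3 those of the B cell, MHC class II, T cell activation and NF-kappaB lists turned from negative to positive. The ribosomal median moved from 0.06 to 0.36, also within the limit.

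Log2 fold changes that turned sign were as follows. With a length offset Lck was 0.31, Selenop -0.18, Tgtp2 -0.11, Fcgbp 0.21, Cd69 0.14 and Ccl24 -0.21. In limma-trend on log2(TPM + 1) Lck was 0.24, Gstp1 -0.35, Fcgbp 0.23, Hbb-bs 0.45, Cxcl10 0.16 and Igha -0.34. In limma-voom Ifi47 was 0.094, Hbb-bs 0.18, Fosb 0.12, Nfkbia 0.28, Gzmb 0.037, Cxcl10 0.27, Tuba1b 0.013 and Fabp1 0.24. Ccr7 was 0.053 without the filter. Without propyzamide replicate 3 under RLE and with named protein-coding genes only, both tried after seeing the data, Ccr7 was 0.28 and 0.26, Nfkbia 0.25 and 0.24, Cd69 0.21 and 0.14, and Tuba1b 0.14 and 0.11. Leaving out each library in turn, the ranges that crossed 0 were -1.80 to 0.031 for Areg, -0.066 to 0.63 for Btg1, -0.33 to 1.39 for Ccl24, -0.32 to 0.27 for Ccr7, -0.58 to 0.19 for Cd69, -1.03 to 0.051 for Cldn7, -1.05 to 0.12 for Cxcl10 and -0.90 to 0.11 for Dusp1. They were -0.91 to 0.39 for Fabp1, -1.04 to 0.028 for Fcgbp, -1.59 to 1.10 for Fosb, -0.16 to 0.71 for Foxp1, -0.52 to 0.99 for Gbp2, -2.03 to 3.26 for Gstm3, -0.53 to 0.89 for Gstp1, -1.22 to 0.080 for H2-Oa and -0.69 to 0.58 for Hbb-bs. For Ifi47 the range was -1.04 to 0.071, for Igha -0.57 to 0.51, for Itln1 -0.11 to 0.64, for Jchain -0.16 to 0.96, for Nfkbia -0.46 to 0.61, for S100a9 -0.039 to 1.08, for Tuba1b -0.56 to 0.23 and for Vim -2.08 to 0.12. Propyzamide minus vehicle ranged from -331841 to 55738 total counts, -1475 to 1045 genes detected and -0.150 to 0.218 percentage points of mitochondrial counts. None of these genes was called in edgeR's 8 leave-one-out fits, and the cause was not tested.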
